A study of Mus musculus with 6 samples.

Results

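The genes described are 6 class 3 semaphorins (Sema3a to Sema3f), both neuropilins (Nrp1 and Nrp2) and the plexins Plxna1 and Plxnd1, 10 genes of the 18194 measured. The family was chosen by the signal of Sema3c, which differed in 1 of the samples, so the values below describe these samples and carry no test. All probe sets that the platform annotation assigned to exactly 1 of these genes were taken, which gave 18 of 20393 single-gene probe sets on the MOE430A array and 10 of 14674 on MOE430B. The RNA came from 10T1/2, a line of mouse embryonic fibroblasts grown in DMEM with 10% fetal bovine serum and harvested at 80% confluency. There is 1 group of 3 samples, numbered 1, 4 and 5, and each was run on 1 array of each design. The labels give no treatment, genotype or second condition, and say that the best samples were to be chosen for the arrays. Whether the samples came from separate cultures is not stated, and their spread may be technical. The stated purpose was a fibroblast profile whose genes could be taken out of the profiles of stem cells.

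Class 3 semaphorins are secreted proteins that steer growing axons, migrating cells and blood vessels. Most of them bind a neuropilin on the target cell, and the neuropilin recruits an A-type plexin or Plxnd1, which carries the signal inward, lowers integrin adhesion and rearranges the actin skeleton. Sema3e is the exception that binds Plxnd1 directly. Neuropilins are also co-receptors for vascular endothelial growth factors (VEGF), and fibroblasts and other mesenchymal cells are among the known sources of these ligands.

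A probe set was called above the limit of an array when its signal passed the 95th percentile of probe sets for genes of distant tissues, such as liver, pancreas, retina and pituitary. A gene was called detected when 1 of its probe sets was above the limit in all 3 samples. The limit was 1240, 1422 and 955 on the MOE430A arrays of samples 1, 4 and 5, from 133 probe sets. On MOE430B it was 4235, 3770 and 5187, from only 10 probe sets, and 1 of these, for Apoh, read 5696, 4613 and 7153 and largely set it. Without that probe set the MOE430B limit was 2217, 2225 and 2365, a comparison added after the values were known. Of 14 measured fibroblast markers 13 were detected, with Thy1 the exception, beside 24.0% of all measured genes. Detected were also 0 of 14 endothelial, 1 of 14 neuronal and glial (Sox10), 1 of 9 leukocyte (Cd14) and 1 of 10 epithelial markers (Epcam). The signal ratio of 3' to 5' probe sets was 24.7, 15.0 and 10.6 for Gapdh and 17.5, 9.57 and 8.68 for beta-actin in samples 1, 4 and 5 on MOE430A, highest in sample 1 for both.

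Of the 10 genes, 3 were detected (30%), namely the ligand gene Sema3a and both neuropilin genes, where 24.0% of all measured genes were, so the share of the family was near that of all genes. Of the 28 probe sets, 5 were above the limit in all 3 samples, 9 in at least 1, and 19 in none. On MOE430A these were 4 of 18 (22.2%) in all 3 samples, where 23.0% of all single-gene probe sets were. On MOE430B it was 1 of 10, where 7.41% were. At least 1 sample was above the limit for 4 of 18 on MOE430A and 5 of 10 on MOE430B, where 39.1% and 17.0% of all probe sets were. Sema3c, Sema3f and Plxna1 were above the limit in 1 or 2 samples, and no probe set of Sema3b, Sema3d, Sema3e or Plxnd1 was above it in any.

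**Figure D1:**
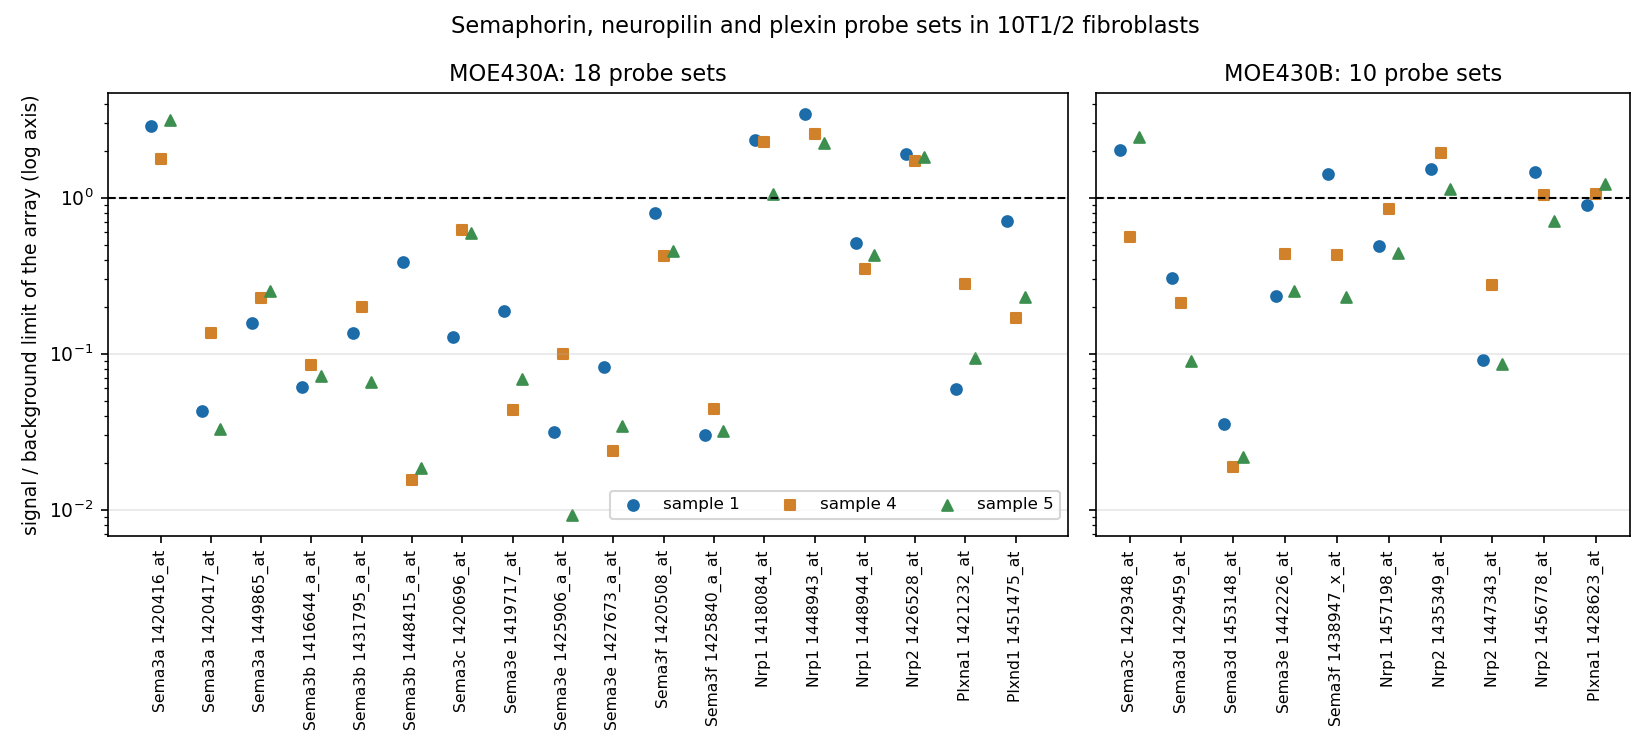
Signal of each of the 28 probe sets divided by the background limit of its array (log axis), with 1 point for each of samples 1, 4 and 5. Points above the dashed line are above the limit. Sema3a, Nrp1 and Nrp2 have probe sets with all 3 points above it, Sema3c has samples 1 and 5 above and sample 4 below on MOE430B, and heights of different probe sets are not comparable as amounts of RNA.

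RefSeq promoter sequences (build GRCm38.p6) were at hand for 7 of the 10 genes, and not for Sema3b, Sema3f and Plxna1. The 250 bases before the start site are printed for Sema3c and for the 2 detected receptors, Nrp1 and Nrp2. Sema3c differed most between samples among members above the limit in at least 1 sample. Capitals mark the GC box GGGCGG, or its reverse complement CCGCCC on the other strand, each read 5′ to 3′ along the gene's strand.
Sema3c, chr5:17574566-17574815, + strand: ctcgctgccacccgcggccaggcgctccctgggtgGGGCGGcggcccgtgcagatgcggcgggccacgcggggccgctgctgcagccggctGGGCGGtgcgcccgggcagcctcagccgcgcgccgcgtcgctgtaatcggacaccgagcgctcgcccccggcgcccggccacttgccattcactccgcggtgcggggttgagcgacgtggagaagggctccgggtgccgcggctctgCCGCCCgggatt
Nrp1, chr8:128358823-128359072, + strand: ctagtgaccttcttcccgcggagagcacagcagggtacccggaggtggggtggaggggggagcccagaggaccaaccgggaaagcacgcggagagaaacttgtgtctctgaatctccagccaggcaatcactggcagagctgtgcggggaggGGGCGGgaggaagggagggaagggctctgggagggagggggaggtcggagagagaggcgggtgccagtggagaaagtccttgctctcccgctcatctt
Nrp2, chr1:62703067-62703316, + strand: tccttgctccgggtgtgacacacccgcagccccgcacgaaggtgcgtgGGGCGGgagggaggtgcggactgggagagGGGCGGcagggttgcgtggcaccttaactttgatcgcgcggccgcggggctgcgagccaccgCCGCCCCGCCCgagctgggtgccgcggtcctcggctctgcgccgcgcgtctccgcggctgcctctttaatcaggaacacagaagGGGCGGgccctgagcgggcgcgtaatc
Sema3c held 39 CpG dinucleotides in this window and 3 GC boxes, Nrp2 held 32 and 5, of which a pair overlaps, and Nrp1 held 11 and 1. The median of all 32851 promoters was 6 CpG, and 32.7% of them held a GC box on either strand. Sema3a, which was detected, held 2 CpG and no GC box. The TATA sequence TATAAA, or TTTATA on the other strand, was in none of the 7 windows and in 12.4% of all promoters.

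Among the ligands, Sema3a was the gene detected. Sema3a, the repellent of sensory and cortical axons that acts through Nrp1, read 3592, 2529 and 3012 in samples 1, 4 and 5 by probe set 1420416_at (3045 ± 533, SD, n = 3). The highest sample was 1.42 times the lowest, and all lay above the limit. Its other 2 probe sets, 1420417_at and 1449865_at, read between 31.3 and 325 and were below the limit in every sample, so the detection of Sema3a rests on 1 of 3 probe sets.

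Sema3c, which guides cells of the cardiac outflow tract and binds both neuropilins, was the member with the widest spread among those above the limit. Probe set 1429348_at on MOE430B read 8601, 2098 and 12752 in samples 1, 4 and 5. Samples 1 and 5 were above the limit and sample 4 was not, with either limit of that array. Sample 4 was 2.32 below the mean of the other 2 on the log2 scale as measured, and since it was not above the limit the fold is a bound, at least 2.78-fold lower. With the limit taken without the Apoh probe set the bound was 4.71-fold. This is the value by which the family was picked. Sample 4 was at least 2-fold below both other samples for 33 of the 2499 MOE430B probe sets above the limit in at least 1 sample (1.32%).

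The other probe set of Sema3c did not show that order. On MOE430A 1420696_at read 158, 876 and 571 in samples 1, 4 and 5, with sample 4 the highest, but all 3 values were below the limit, so they carry no order. Whether both probe sets see the same transcripts was not tested. For the 100 non-control probe sets common to both designs, the difference of sample 4 from the other samples correlated between MOE430A and MOE430B with r = 0.53 across probe sets, and 74 of 100 had the same sign. These probe sets share the RNA of each sample, and are not independent of each other. In samples 1 and 5 the r was 0.61 and 0.71. One marker of another cell type moved the opposite way to Sema3c on MOE430B, since the epithelial adhesion gene Epcam read 31382, 139544 and 29693 by 1447899_x_at, the array's only probe set of the 10 epithelial markers. On MOE430A Epcam read 47.4, 39.1 and 39.5, below the limit. The epithelial list summed to 3125, 2721 and 3273 there with 0 of its genes detected, and the part of this in the Sema3c value was not tested.

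**Figure D2:**
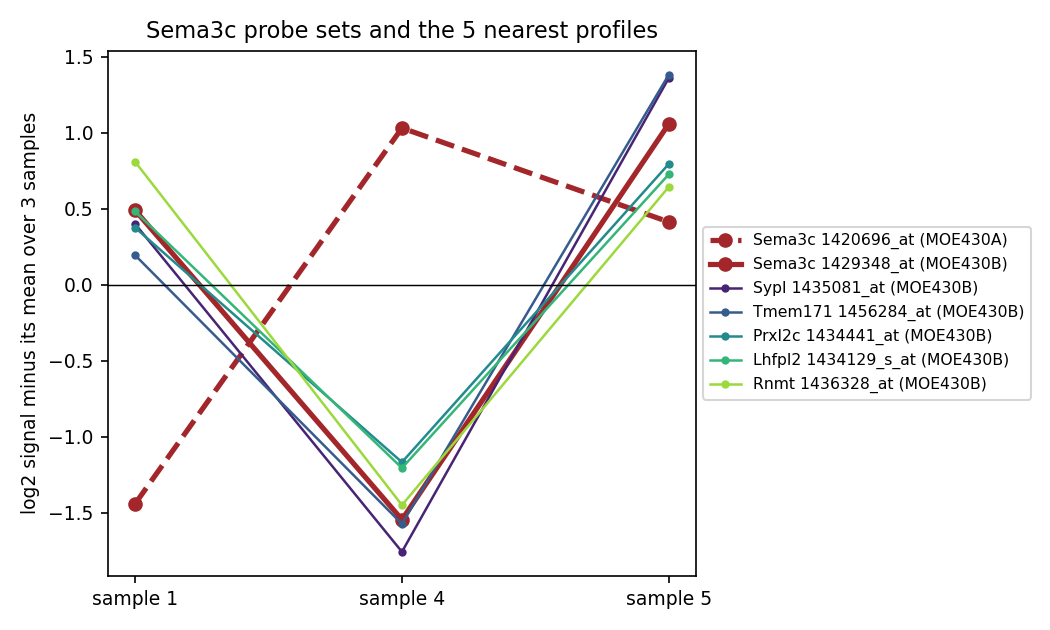
Log2 signal minus its mean over the 3 samples for both Sema3c probe sets (thick lines) and for the 5 nearest genes on MOE430B (thin lines), and the lines only join the values of a probe set. The MOE430B probe set of Sema3c is low in sample 4 and its MOE430A probe set, below the limit in every sample, is high there.

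The 5 genes whose pattern was most like that of Sema3c were Sypl, Tmem171, Prxl2c, Lhfpl2 and Rnmt, by the Euclidean distance between log2 signals centred on their mean over 3 samples. The distances were between 0.38 and 0.53, over the 2499 MOE430B probe sets above the limit in at least 1 sample. Sypl, which encodes a vesicle membrane protein, read 3122, 700.0 and 6071 in samples 1, 4 and 5. Rnmt, which encodes the methyltransferase of the messenger RNA cap, read 5174, 1081 and 4614. All 5 were below the limit in sample 4, and Sypl, Tmem171 and Rnmt were above it in only 1 of 3 samples, so the distances rest in part on values that carry no order. The genes were chosen for this pattern, and with 3 samples a close one is easily met.

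Sema3f, a ligand that acts mainly through Nrp2, differed in another sample. Probe set 1438947_x_at on MOE430B read 5970 in sample 1, against 1613 and 1199 in samples 4 and 5. Only sample 1 was above the limit, which makes it at least 1.35-fold higher than the other samples, and an ending in _x_at means that its probes can match several transcripts. Its MOE430A probe sets were below the limit, with 983, 597 and 432 for 1420508_at and 37.1, 62.4 and 30.3 for 1425840_a_at. Sample 1 was at least 2-fold above both others for 63 of the 2499 probe sets of MOE430B (2.52%), and this is also the sample with the highest 3' to 5' ratios, whose part was not tested.

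The remaining ligands stayed below the limit throughout. The 3 probe sets of Sema3b, a ligand studied as a tumour suppressor, read between 17.6 and 479, with the highest value in sample 1 (1448415_a_at, 479, 22.1 and 17.6). Sema3d, a ligand of the developing heart and neural crest, read 1284, 795 and 467 by 1429459_at and at most 150 by 1453148_at. Sema3e, the ligand of Plxnd1, read between 8.76 and 1633 over 4 probe sets, highest on MOE430B by 1442226_at with 996, 1633 and 1314. None of these orders can be read, because every value was within the range of the background genes.

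Both neuropilin genes were detected, by 4 of their 8 probe sets. Nrp1, the receptor chain for Sema3a that also binds VEGF, read 2924, 3255 and 1012 in samples 1, 4 and 5 by 1418084_at on MOE430A. Sample 5 was 2.89-fold below the nearest other sample and 1.61 below the mean of both on the log2 scale. Probe set 1448943_at gave 4288, 3664 and 2135, again lowest in sample 5 but 1.72-fold below the nearest sample. The remaining MOE430A probe set, 1448944_at, read 634, 496 and 412, below the limit.

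On MOE430B the low value of Nrp1 in sample 5 was not seen. There 1457198_at read 2063, 3203 and 2286, with sample 1 the lowest, and all below the limit, so no order can be taken from it. Sample 5 was at least 2-fold below both others for 421 of 7967 MOE430A probe sets above the limit in at least 1 sample (5.28%). For fibroblast markers, sample 5 was at least 2-fold below both others for 15 of their 27 probe sets above the limit in any sample. It was 2-fold above both others for 0 of them. The list summed to 647544, 704793 and 291188 on MOE430A and 43205, 36524 and 21556 on MOE430B. Some of its genes went another way, with Pdgfra at 8198, 4006 and 8560 by 1421917_at and Vim at 36684, 99725 and 76354 by 1450641_at. Sample 5 was also the one whose MOE430A array was washed on fluidics station 2, while the other 5 arrays went through station 1. Among neuronal and glial markers 1 of 14 genes was detected, and the list summed to 13212, 12786 and 11141 on MOE430A and 9594, 10283 and 15593 on MOE430B. The neurofilament gene Nefl in that list passed the limit in sample 5 alone, at 255, 222 and 2745 on MOE430A and 1453, 1913 and 10222 on MOE430B, as did Gap43 at 240, 461 and 1331. Others of that list went the other way, with Stmn2 at 1249, 1638 and 582 by 1423280_at and S100b at 1692, 965 and 222 by 1434342_at. Of the 7 probe sets of the list above the limit in at least 1 sample, sample 5 was at least 2-fold higher for 3 and lower for 2. Of the leukocyte markers, summing to 6732, 6713 and 9079 on MOE430A, Lyz2 read 400, 390 and 1168, above the limit in sample 5 only. Cd14, the marker detected, read 2151, 2576 and 4147. Csf1r passed the limit in sample 5 only by 1419872_at but differed little, at 1191, 1222 and 1165. The part of these in the Nrp1 value was not tested.

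Nrp2, the receptor chain for Sema3f, was detected on both designs. It read 2362, 2433 and 1747 by 1426528_at on MOE430A (2181 ± 377, SD, n = 3) and 6418, 7299 and 5894 by 1435349_at on MOE430B (6537 ± 710, SD, n = 3). All 6 values were above the limit, and the highest sample was 1.39 and 1.24 times the lowest. Both probe sets gave the order 4, 1, 5, from high to low, although the differences were small. Another probe set, 1456778_at, read 6207, 3942 and 3673, with sample 5 below the limit of MOE430B, and the last, 1447343_at, read 384, 1038 and 446, below it in every sample.

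Of the plexins, Plxna1 was near the limit and Plxnd1 below it. Plxna1, an A-type plexin that pairs with neuropilins, read 3810, 3981 and 6319 by 1428623_at on MOE430B, above the limit in samples 4 and 5. Sample 5 was 1.59-fold above the nearest other sample. With the limit taken without the Apoh probe set, Plxna1 was above it in all 3 samples. With the brightest background probe set left out on both designs (Apoh on MOE430B, Oxt on MOE430A), 4 of the 10 genes and 31.1% of all genes were detected. Its MOE430A probe set 1421232_at read between 73.6 and 400, below the limit. Plxnd1, best known from endothelial cells, read 873, 240 and 222 by its single probe set 1451475_at.

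**Figure D3:**
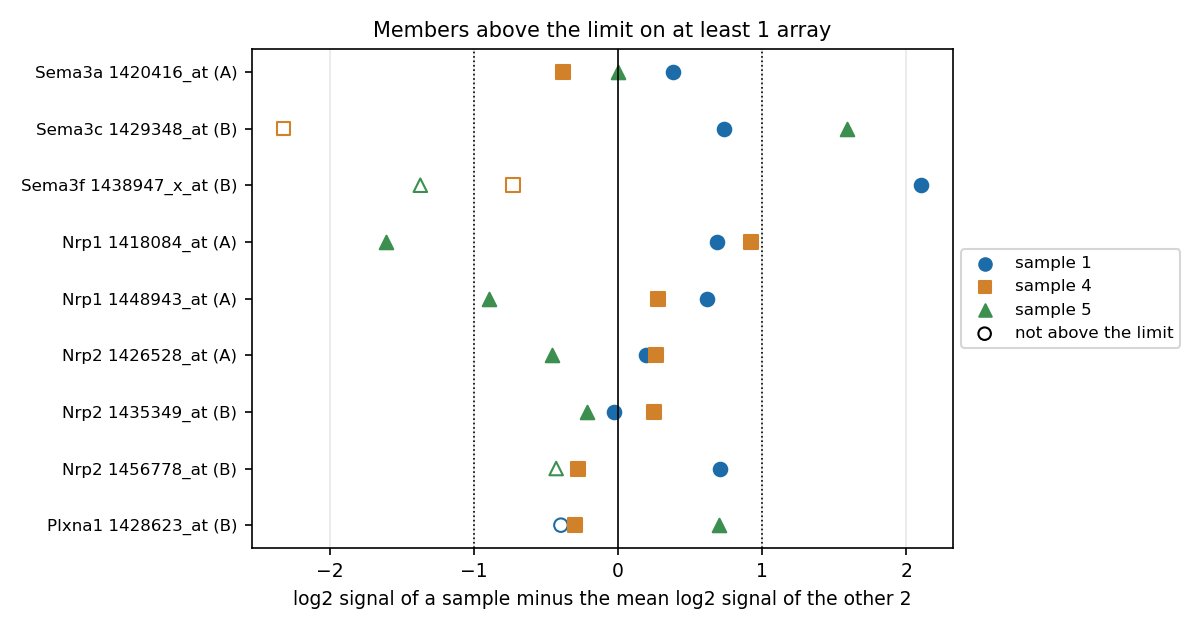
Log2 signal of each sample minus the mean log2 signal of the other 2, for the 9 probe sets above the limit in at least 1 sample (A and B name the array design). Open symbols are values not above the limit, dotted lines mark 2-fold, and the samples that differ are sample 4 for Sema3c, sample 1 for Sema3f and sample 5 for Nrp1.

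Across the family, 3 of the 9 probe sets above the limit in at least 1 sample had a sample at least 2-fold from both others by the signals as deposited (33.3%), where 21.6% of all such probe sets did (21.7% on MOE430A and 21.2% on MOE430B). The 3 were those of Sema3c, Sema3f and Nrp1, and each differed in another sample. The probe set of Sema3c had to count, here and in the next count, because the family was picked by it. Both shares of the family are raised by this. When values under the limit were set to it, 2 of the 9 did, those of Sema3c and Nrp1, where 10.5% of all did, since Sema3f then passed 2-fold no longer. The median ratio of the highest to the lowest sample was 1.69 for the 4 member probe sets of MOE430A and 1.69 for the 5 of MOE430B. Over all probe sets above the limit in at least 1 sample it was 1.73 and 1.70. The median spread of the family was thus close to that of other genes, and the low value of Sema3c was seen with 1 of its 2 probe sets.

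**Figure D4:**
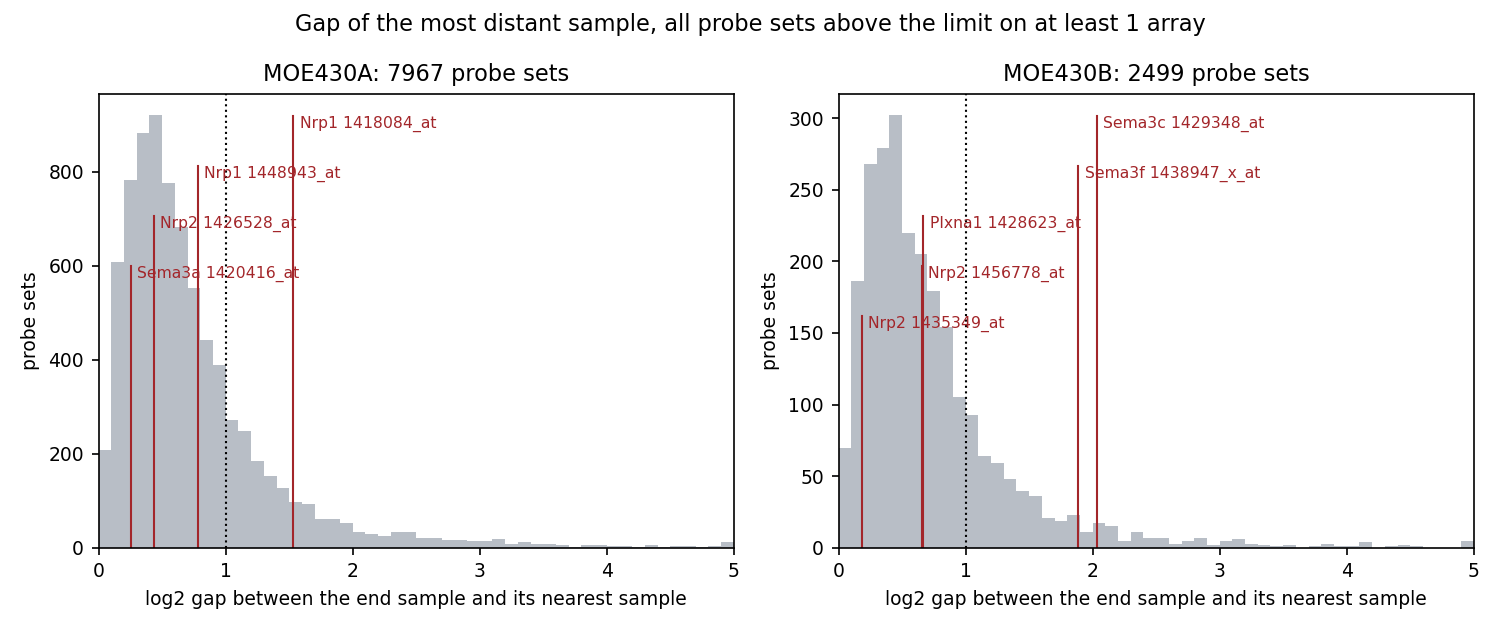
Histograms of the log2 gap between the most distant sample and the sample nearest to it, for all probe sets above the limit in at least 1 sample on each design, with the member probe sets as red lines and 2-fold as a dotted line (gaps over 5 are counted in the last bar). Sema3c at 2.04, Sema3f at 1.89 and Nrp1 1418084_at at 1.53 lie right of the dotted line and the other 6 left of it. Gaps use the signals as deposited, and those of Sema3c and Sema3f include values below the limit, so their size is not measured.

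Of 14 further semaphorin genes 3 were detected, Sema4b, Sema4c and Sema6c, all of them membrane-bound, beside the 24.0% of all genes. Sema4c read 17046, 6837 and 10270 in samples 1, 4 and 5, highest in sample 1, and Sema4b read 4742, 3455 and 4250. Sema7a, a membrane-anchored semaphorin that signals through integrins and Plxnc1, read 992, 156 and 9066 by 1459903_at. Only sample 5 was above the limit, at least 6.83-fold higher. Its other probe set, 1422040_at, read 350, 30.4 and 324, below the limit in every sample, so the bound rests on 1 probe set. Sample 5 was at least 2-fold above both others for 6.11% of MOE430A probe sets above the limit in at least 1 sample. The higher Nefl, Gap43, Lyz2 and Cd14 signals of sample 5 given above go with the value of 1459903_at. Those of Stmn2 and S100b go the other way, and that of Csf1r differed little. The part of these in the Sema7a value was not tested. Of 9 further plexin and plexin domain genes 3 were detected, beside the same 24.0% of all genes. Plxnb2, a receptor of class 4 semaphorins, read 4810, 5554 and 2517, Plxna3 read 2308, 2544 and 1386, and Plxna2 read 11682, 6663 and 5725. Plxnb2, Plxna3 and Plxna2 were all lowest in sample 5, as Nrp1 was on MOE430A. Plxna2 was also highest in sample 1, and no sample was 2-fold from both others.

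Among 14 co-receptors, VEGF ligands and other receptors, Vegfd and the adhesion molecule gene L1cam, a partner of Nrp1 in axons, were detected. This was 2 of 14 genes, beside the 24.0% of all genes. All 3 probe sets of Vegfd, a ligand of lymphatic vessel growth, were lowest in sample 5, and 1449528_at read 3794, 3031 and 1296. L1cam read 2275, 3133 and 2128, with no sample 2-fold from the others. The VEGF receptor gene Kdr, a partner of Nrp1 in endothelial cells, read 1491, 1108 and 687, and sample 1 alone passed the limit. Vegfa itself read 1263, 798 and 1718 by 1420909_at, and sample 4 was not above the limit. Of the 10 probe sets above the limit in at least 1 sample in this list, 6 had a sample 2-fold from both others by the signals as deposited, beside the 21.6% of all probe sets. These were the 3 of Vegfd and those of Vegfb, Itgb1 and Met. Itgb1, Met and 2 of the Vegfd probe sets differed through a sample below the limit. As bounds, sample 5 was at least 3.02-fold and 3.19-fold lower for these Vegfd probe sets, and sample 1 at least 2.13-fold lower for Itgb1 and 1.88-fold lower for Met. Another Itgb1 probe set above the limit in 2 samples, 1426918_at, read 1049, 2751 and 1837, with no sample 2-fold from both others.

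Of the genes that act inside the cell 13 of 29 measured were detected, beside the 24.0% of all genes. Dpysl2, the collapsin response mediator that carries Sema3a signals to microtubules, read 58486, 87963 and 79636 in samples 1, 4 and 5 by 1433770_at, lowest in sample 1. Its kinase gene Gsk3b read 20788, 25031 and 22714 by 1454958_at. Rac1 and Rhoa, small GTPases that plexins act on, read 16259, 28169 and 17114 by 1451086_s_at and 10982, 13780 and 11929 by 1437628_s_at, both lowest in sample 1. The other genes detected were Dpysl3, Rnd3, Farp1, Rras, Rras2, Rap1a, Rap1b and Arhgef12. The actin severing gene Cfl1 read 107040, 88907 and 65802 by 1455138_x_at, lowest in sample 5, while 1448346_at read 891, 2252 and 1101, highest in sample 4. Of the 27 probe sets above the limit in at least 1 sample, 3 had a sample 2-fold from both others by the signals as deposited, beside the 21.6% of all probe sets. They belonged to Rras2, Rap1b and Cfl1, each with at least 1 sample below the limit, and the bound was 1.47-fold for Rras2 and 1.53-fold for Rap1b. The other probe sets of these 3 genes above the limit did not.

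Of 5 genes for proteases that can cut semaphorins 3 were detected, Furin, Pcsk7 and Adamts1, beside the 24.0% of all genes. Adamts1, a secreted protease known to cut human SEMA3C in tumour cells, read 41635 in sample 1, against 13960 and 4960 in samples 4 and 5. Furin, the convertase that processes class 3 semaphorins, read 3457, 1542 and 1423. Sample 1 was at least 2-fold above both others for each of the pair, as it was for 2.79% of MOE430A probe sets above the limit in at least 1 sample. It is also the sample with the highest 3' to 5' ratios, whose part was not tested. Pcsk7 read 1768, 1562 and 1377.

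**Figure D5:**
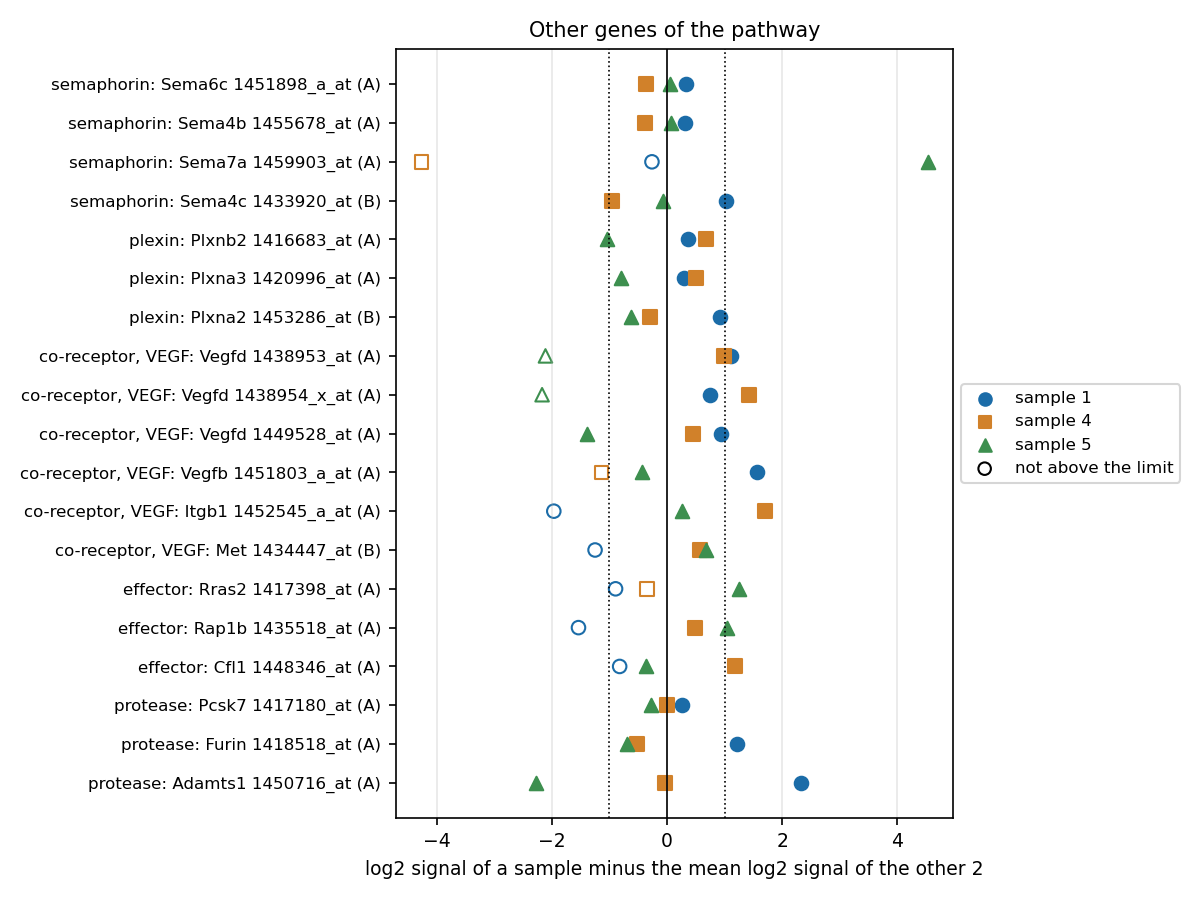
Log2 signal of each sample minus the mean log2 signal of the other 2, for other genes of the pathway (A and B name the array design). Drawn are probe sets above the limit in at least 1 sample with a sample 2-fold from both others. Those of further semaphorins, plexins and proteases above the limit in all 3 samples are added. Effector, co-receptor and VEGF probe sets with no sample 2-fold from both others are not drawn. Open symbols are not above the limit, and the widest spreads are those of Sema7a (high in sample 5) and Adamts1 (high in sample 1 and low in sample 5).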

How the data were processed

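Expression was measured on 6 Affymetrix arrays, 1 MOE430A and 1 MOE430B for each of 3 samples of 1 group. The authors deposited 1 linear signal intensity per probe set and array, made with MAS5 per the submitters' processing notes; no version is named. The mean signal trimmed by 2% was 1501 on MOE430A arrays and 1500 on MOE430B arrays. The table holds no detection calls. The 2 designs were kept apart, and the small number of arrays limits precision.

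Probe sets naming 1 gene were used, 20393 of 22690 and 14674 of 22575, with symbols updated by gene ID from RefSeq. The intensity tables name no genome build. Of 116 background genes, 101 were measured on MOE430A and 9 on MOE430B. Signals were raised to at least 1 before log2. No fold between samples was tested, because there is 1 group. Scripts used Python 3.11.15, numpy 2.4.6 and pandas 2.3.3, and the rules were tested on simulated data. The run settings of each array, per the file headers, gave the fluidics station. Per-sample columns not used numbered 0.

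The members and all lists were chosen with earlier results of these data known. All members are named. Other genes of the pathway could be named when detected, by the probe set of highest mean, or when above the limit with a sample 2-fold from both others, and for likeness the 5 nearest genes. Kdr and Vegfa fall outside this rule and were chosen after their values were seen. The alternatives were the percentile (90th and 99th), detection in 2 of 3 samples, most probe sets of a gene, _s_at and _x_at probe sets left out, quantile normalisation, pseudocounts of 16 and 64, other filters, 3-fold, the background list and each sample left out.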

Additional observations from a re-analysis of the deposited data

How the results depend on the processing

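Of the 10 genes, 3 were detected, and between 2 and 4 were under the 90th and 99th percentile, quantile normalisation and removal of _s_at and _x_at probe sets. The share of all genes was 24.0%, and 16.8% to 33.8% under these settings. The number was 5 when 2 of 3 samples sufficed, which added Sema3c and Plxna1, where 31.3% of all genes were detected. It was 0 when most of a gene's probe sets had to be above the limit, where 10.8% of all genes were. With 1 sample left out it was 3 to 4, since Plxna1 was added without sample 1 and Sema3c without sample 4. The share of all genes was then 26.3% to 26.8%. The number was 4 without the Apoh and Oxt probe sets (31.1% of all genes). It was 3 with markers of other cell types added to the background (20.4% of all genes). Both settings were chosen after seeing the data. The number of member probe sets with a sample 2-fold from both others was 3, among them that of Sema3c, by which the family was picked. It became 13 of 28 with no filter, where 38.7% of all probe sets had one. It was 1 of 5 when all 3 samples had to be above the limit, where 12.2% of all probe sets had one. When values under the limit were set to it, the number was 2, and the share of all probe sets was 10.5% in place of 21.6%. With 1 sample left out, 2 to 3 probe sets differed 2-fold between the other samples, an alternative chosen after seeing the data. The share of all probe sets was then 14.6% to 28.0%.

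The log2 difference of Sema3c in sample 4 stayed between -2.60 and -2.04 with sample 1 or sample 5 left out. These are its differences from each of the other samples, and their sign was fixed by the way the probe set was picked. The difference was -1.47 with signals raised to the limit, and -2.23 with the limit without the Apoh probe set. The value of Sema3f in sample 1 fell to 0.43, against 2.10 as measured, with signals raised to the limit, by construction. Of 98 values of 14 single probe sets under the alternatives, 96 moved by less than the spread between samples, 2 by more (Sema3f and Rap1b, both with signals raised to the limit), and 0 changed sign. These counts say little, because each probe set was picked for a sample 2-fold from both others. Leaving a sample out or adding a pseudocount could thus not change the sign. The spread is the SD of the same 3 values, the differing sample included, and so is wide. The planned second background list was not run, because it is the list used. No paired analysis was possible because there is 1 group. The 10 background probe sets of MOE430B limit how firmly a gene can be called undetected there.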
